A study of Mus musculus with 4 samples.

Results

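Translation initiation factors were followed as a gene family in mouse cells: the 51 protein-coding genes whose symbols begin with Eif1 to Eif6, leaving out the Eif2ak kinases, of 50686 gene identifiers counted. The rule reads symbols and annotation and no measured value, and another 8 loci with such symbols were left out because the annotation gives them as pseudogenes or non-coding. RNA-seq counts covered 4 libraries: Yap KO stimulated, WT stimulated, Yap KO unstimulated and WT unstimulated cells, 1 library each, with no replicate. The labels name an Illumina MiSeq, an instrument whose usual output is below the number of entries in each table here, and this could not be checked. They place the origin of the cells in spleen and lymph node and take the RNA from cell culture, and the titles of the stimulated libraries carry the number 24 without a unit. No source used here gives the stimulus, the cell type, the animals, the deleted exons of Yap or whether both states were cultured for the same time. Genotype and cell source therefore cannot be told apart.

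Reads assigned to genes numbered 19935523 in Yap KO stimulated, 20976343 in WT stimulated, 25419974 in Yap KO unstimulated and 22088392 in WT unstimulated cells. Yap1, the gene of the genotype label, had 2, 3, 0 and 1 reads in the same order, all at or under a floor of 3 reads, so it did not check the labels. Levels are given as CPM, reads of a gene scaled by library size and a TMM factor. The CPM of 8 T cell markers summed to 1796 and 1982 in the stimulated Yap KO and WT libraries, against 4844 and 4457 in the unstimulated ones. Cd8a and Cd8b1 together gave 521 and 605 CPM against 2295 and 2150 CPM, while Cd4 had 3 reads or fewer in every library. Among the T cell markers 7 fell and 1 rose between the states, by the edgeR test described below. Of all tested genes, 32.5% fell and 32.1% rose in that test. The 4 stromal markers summed to 10.7 and 11.8 CPM in stimulated cells, against 136 and 158 CPM in unstimulated cells, with Cdh5 at 0 throughout. The 6 B cell markers summed to 23.8 and 12.1 CPM in stimulated cells, against 59.5 and 35.1 CPM in unstimulated cells, and 3 of the 5 tested fell. The 6 myeloid markers summed to 24.1 and 18.1 CPM against 31.8 and 25.9 CPM, and 1 of the 3 tested fell, close to the share of all tested genes. The 5 NK cell markers summed to 112 CPM in Yap KO stimulated and 80.3 CPM in WT stimulated cells. In unstimulated cells they summed to 111 CPM in Yap KO and 31.7 CPM in WT. Of the 3 NK cell markers tested, 2 fell and 1 rose. Of the 5, 1 had 0 reads in Yap KO stimulated and 2 in WT stimulated cells. Neutrophil and erythroid markers summed to at most 3.27 CPM. The part of these shifts in the results below was not tested. In bulk RNA, fewer cells of a type and less RNA per cell cannot be told apart, and CPM is relative to the rest of the counted RNA and not an amount per cell.

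Initiation brings a ribosome and the initiator tRNA to the start codon of an mRNA. eIF2 carries the initiator tRNA with GTP and is recharged by eIF2B. eIF1, eIF1A and the many-subunit eIF3 act on the small ribosomal subunit. The cap complex eIF4F joins the cap-binding protein eIF4E, the scaffold eIF4G and the helicase eIF4A, and 4E-binding proteins compete with eIF4G for eIF4E. eIF5 and eIF5B take part in start codon selection and subunit joining. Lymphocytes are known for raising protein synthesis on activation, and eIF2 phosphorylation and mTORC1 signalling are the main brakes and drives on this machinery.

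Initiation factor genes took a larger share of the counted RNA in stimulated than in unstimulated cells of the same genotype, and every functional group had members that rose. The 51 genes together took 1.94% of gene reads in Yap KO stimulated and 1.80% in WT stimulated cells, against 0.967% in Yap KO unstimulated and 0.979% in WT unstimulated cells. On the TMM-scaled CPM the sum was 2.11-fold higher in Yap KO and 1.96-fold higher in WT. Of the 51 genes, 48 passed the filter on low counts. Of these, 41 rose (85.4%), where 32.1% of all 15394 tested genes did, and 3 fell (6.25%), where 32.5% of all tested genes did. In either direction, 64.6% of all tested genes passed. The 3 that fell were Eif4a2, Eif4g3 and Eif4ebp2, each a paralog of a gene that rose. Another 4, Eif2b2, Eif3f, Eif3h and Eif4e3, did not pass the test. A gain of 2-fold or more was called in 27 members, where 21.3% of all tested genes had one, and a loss of that size in 0 members, where 22.6% did.

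These calls come from edgeR's quasi-likelihood test, in which genotype and state entered as additive terms, and Benjamini-Hochberg adjustment over all tested genes. With 1 library a group, its p-values do not rest on replicate cultures or animals. How alike the state ratios of a gene were in both genotypes gave 1 residual degree of freedom. The variance shared over all tested genes gave 8.45 prior degrees of freedom and so weighed more. A small p-value thus need not mean that the ratios of that gene were alike. Taken 1 genotype at a time, the median log2 ratio of the 48 members, stimulated over unstimulated, was 1.10 in Yap KO and 1.14 in WT. The medians over all tested genes were -0.05 and -0.02. The ratio was above 0 in both genotypes for 42 members, as for 43.2% of all tested genes, and below 0 in both for 4 members, as for 45.4% of all tested genes. Eif2b2 and Eif4e3 had opposite signs. A ratio of 1.5-fold or more in either direction was seen in 36 members in Yap KO and 35 in WT, where 67.4% and 67% of all tested genes reached it.

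**Figure D1:**
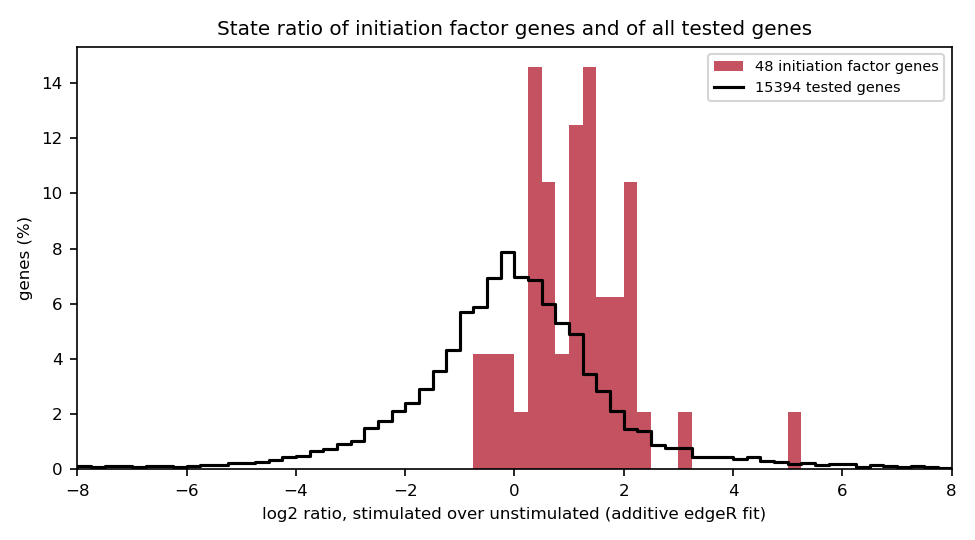
Distribution of the log2 state ratio (x axis, stimulated over unstimulated, additive edgeR fit) as a percentage of genes per bin (y axis), for the 48 tested initiation factor genes (filled bars) and all 15394 tested genes (line). The bars lie mostly right of 0, from -0.65 for Eif4g3 to 5.09 for Eif4ebp1, while the line is centred near 0 with tails on both sides.

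The ternary complex genes rose together. Eif2s1, the alpha subunit of eIF2 and the target of the stress kinases, had 601 and 596 CPM in Yap KO and WT stimulated cells, against 185 and 166 CPM in Yap KO and WT unstimulated cells. Eif2s2, the beta subunit, had 353 and 384 CPM against 65.6 and 75.1 CPM. Eif2s3x, the X-linked gamma subunit, had 181 and 158 CPM against 70.8 and 69.6 CPM. Both stimulated libraries lay above both unstimulated ones for each subunit. The state log2 ratio was 1.77 ± 0.13 (SE) for Eif2s1 (adjusted p = 1.63e-06), 2.39 ± 0.13 for Eif2s2 (2.6e-07) and 1.27 ± 0.13 for Eif2s3x (1.49e-05). Eif2s3y, the Y-linked copy of the gamma gene, had 0 reads in all 4 libraries, a floor of at most 0.155 CPM, while Xist, the RNA of the inactive X chromosome, had 4228, 6663, 5024 and 5393 reads in Yap KO stimulated, WT stimulated, Yap KO unstimulated and WT unstimulated cells. Of the 31-base words in Eif2s3x transcripts, 35.6% also occur in other loci, chiefly the pseudogenes Gm2223 and Eif2s3x-ps1, and reads aligned in several places were counted to no gene.

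The exchange factor eIF2B was less even. Eif2b1, the alpha subunit, had 210.0 and 181 CPM in Yap KO and WT stimulated cells, against 48.6 and 48.8 CPM in Yap KO and WT unstimulated cells. Eif2b3, the gamma subunit, had 85.2 and 76.0 CPM against 29.99 and 29.3 CPM. Eif2b2, the beta subunit, had 65.5 and 55.3 CPM against 61.5 and 60.7 CPM, the single subunit whose libraries overlapped between the states. The state log2 ratio was 2.00 ± 0.13 (SE) for Eif2b1 and 1.44 ± 0.14 for Eif2b3, with 1.14 for the delta subunit Eif2b4 and 0.59 for Eif2b5, the catalytic epsilon subunit. All 4 passed the edgeR test (adjusted p from 8.98e-07 to 0.00195). The ratio of Eif2b2 was -0.02 ± 0.14 and did not pass (adjusted p = 0.898). On the scale of TPM, which corrects for gene length, Eif2b3 was the lowest subunit in all 4 libraries. The highest was Eif2b1 in both stimulated libraries, Eif2b5 in Yap KO unstimulated and Eif2b2 in WT unstimulated cells.

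All 5 genes of the eIF1 and eIF1A group rose, over a wide range. Eif1ax and Eif1a, X-linked and autosomal genes for eIF1A, had state log2 ratios of 2.20 ± 0.13 and 2.00 ± 0.13 (SE). Eif1ax had 222 and 191 CPM in Yap KO and WT stimulated cells, against 46.3 and 43.2 CPM in Yap KO and WT unstimulated cells. Eif1, which guards start codon choice, was the most abundant of the group by TPM, with 1769 and 1391 TPM against 1173 and 1249 TPM. Its state log2 ratio was smaller, 0.44 ± 0.14 (adjusted p = 0.0184). The paralog Eif1b had a log2 ratio of 0.36 ± 0.14 and passed narrowly (adjusted p = 0.0497), and 4 of the alternative settings did not call it. Eif1ad, a gene for a protein with an eIF1A domain, had a ratio of 1.12. Reads of Eif1ad may include some of Banf1, which lies opposite 15.3% of its exon bases.

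Eif2a and Eif2d, both outside eIF2 itself and able to bring tRNA to the ribosome in other ways, also rose. Eif2a had 108 CPM in each stimulated library, against 35.1 CPM in Yap KO unstimulated and 48.3 CPM in WT unstimulated cells. Eif2d moved less, with 139 and 128 CPM in Yap KO and WT stimulated cells against 109 and 98 CPM in Yap KO and WT unstimulated cells. Their state log2 ratios were 1.39 ± 0.15 and 0.37 ± 0.12 (SE). Scaling by total counts alone, Eif2d had a ratio of 0.28 and was not called.

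Of the 14 eIF3 genes, 12 rose and 2 did not pass the test. Apart from the scarce Eif3j2, the largest ratio was that of Eif3c, a core subunit that touches the other factors on the small ribosomal subunit. Eif3c had 812 and 839 CPM in Yap KO and WT stimulated cells, against 240.5 and 230.1 CPM in Yap KO and WT unstimulated cells, and a state log2 ratio of 1.81 ± 0.13 (SE, adjusted p = 1.36e-06). Eif3j1, a loosely bound subunit, followed with 1.64 and then Eif3i with 1.45, Eif3l with 1.44, Eif3d with 1.33, Eif3b with 1.29 and Eif3a with 1.18. Eif3g, Eif3m, Eif3k and Eif3e had ratios of 0.77, 0.74, 0.46 and 0.39, of which that of Eif3e was not called when scaling by total counts alone (0.31). Eif3h had 215 and 203 CPM against 195 and 196 CPM and a ratio of 0.09 ± 0.12 (adjusted p = 0.523). Eif3f ran the other way, with 134 and 127 CPM in stimulated cells against 163 and 151 CPM in unstimulated cells. Its 2 stimulated libraries were both below the unstimulated ones, yet the ratio of -0.26 ± 0.12 did not pass (adjusted p = 0.0813). Scaling by total counts alone, the ratio was -0.35 and was called lower.

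The range of levels over eIF3 subunits was narrower in the stimulated libraries, though their coefficient of variation was not. Across 13 eIF3 subunits, leaving out Eif3j2, the highest TPM was 6.08 times the lowest in Yap KO stimulated and 7.37 times in WT stimulated cells. It was 10.3 times the lowest in Yap KO unstimulated and 11.0 times in WT unstimulated cells. The coefficient of variation of the same TPM was 58.8% and 59.8% in Yap KO and WT stimulated cells, against 54.2% and 54.8% in Yap KO and WT unstimulated cells. Eif3j1 was lowest in all 4, from 32.4 to 110.4 TPM. Eif3h was highest in both unstimulated libraries, with Eif3b highest in Yap KO stimulated and Eif3c in WT stimulated cells. The counts of Eif3j1 and Eif3j2 are uncertain, since 94.3% of the 31-base words of Eif3j2 and 48.0% of those of Eif3j1 occur elsewhere, and for each the gene sharing most of them is the other. Eif3j2 had 102 and 112 reads in Yap KO and WT stimulated cells, against 32 and 29 in Yap KO and WT unstimulated cells. For Eif3d, 43.3% of exon bases lie opposite Gm17638, and reads of the pair could not be separated.

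**Figure D2:**
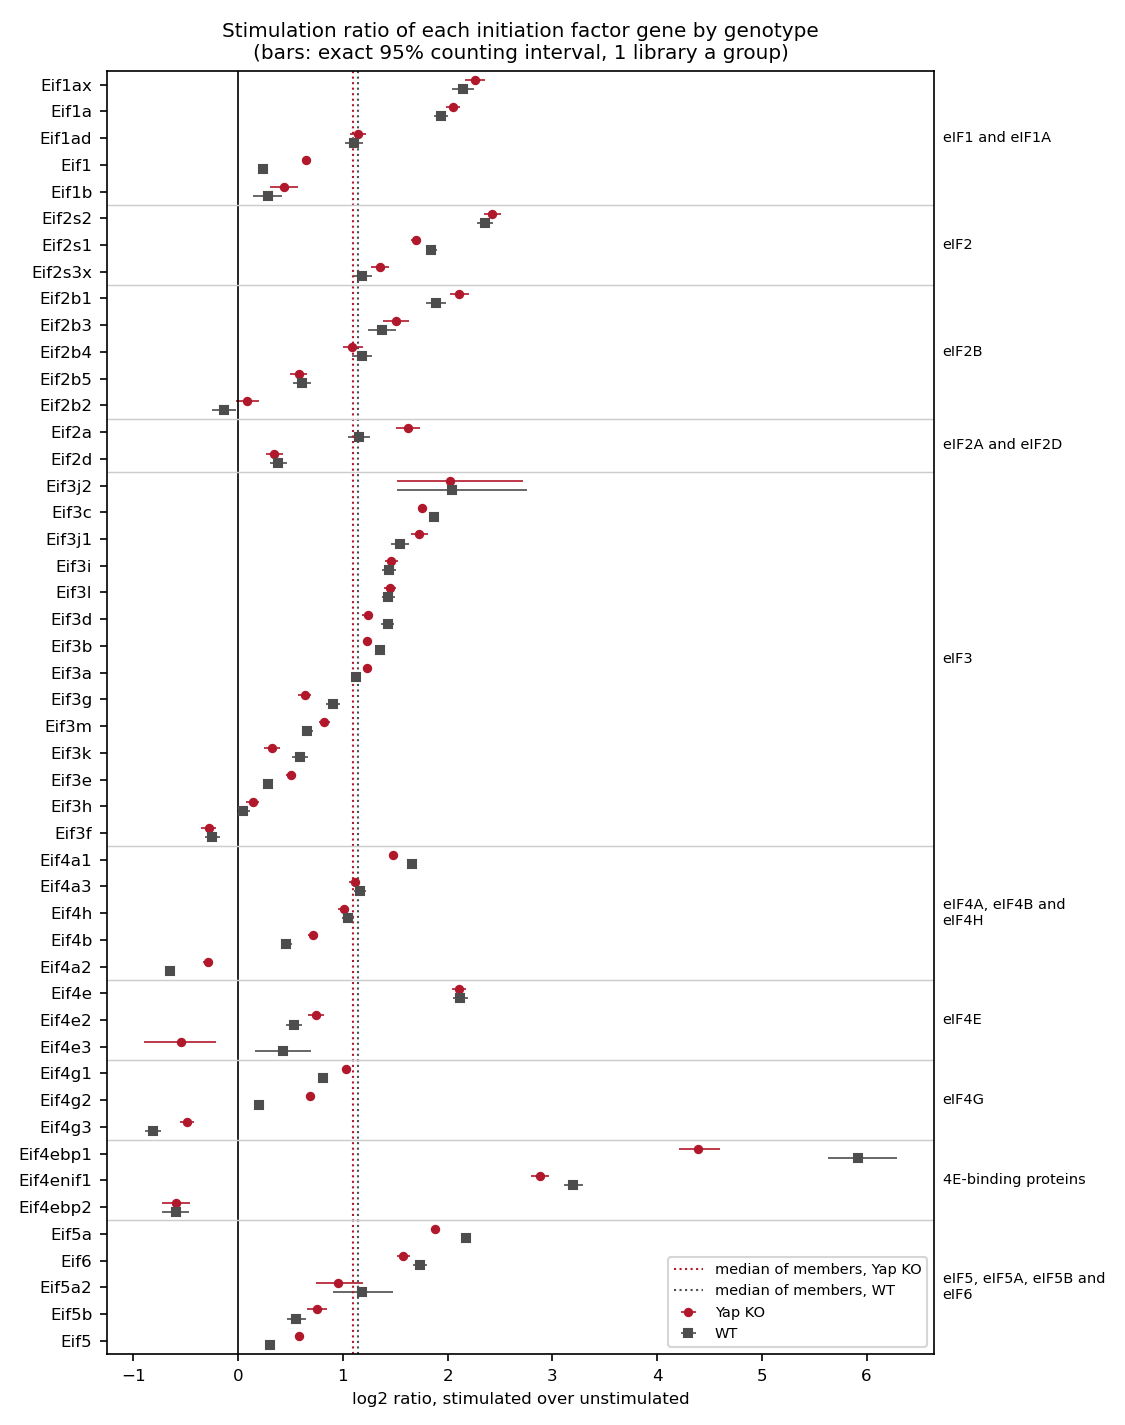
Log2 ratio, stimulated over unstimulated, of each tested initiation factor gene in Yap KO and in WT cells (x axis), ordered within functional groups (y axis). Bars are exact 95% counting intervals of 2 libraries, with no replicate error, and dotted lines are the medians of 1.10 and 1.14. Eif4ebp1 lies farthest right, at 4.39 in Yap KO and 5.91 in WT, and Eif4g3, Eif4ebp2, Eif4a2 and Eif3f lie left of 0 in both genotypes.

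The helicase pair Eif4a1 and Eif4a2 moved in opposite directions. Their upstream sequences are shown as a description, and no link of sequence to direction was tested. The proteins are near-identical RNA helicases of eIF4F. The sequences cover the 250 bases before a RefSeq start site (GRCm38.p6), read in the direction of transcription, with the E-box CACGTG in capitals where present. Eif4a1 is on the minus strand at chr11:69672424-69672673 and Eif4a2 on the plus strand at chr16:23107218-23107467.
Eif4a1: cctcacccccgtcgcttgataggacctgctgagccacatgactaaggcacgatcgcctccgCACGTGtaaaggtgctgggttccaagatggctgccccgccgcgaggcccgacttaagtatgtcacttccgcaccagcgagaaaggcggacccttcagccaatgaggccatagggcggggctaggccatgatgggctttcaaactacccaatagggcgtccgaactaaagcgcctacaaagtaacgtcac
Eif4a2: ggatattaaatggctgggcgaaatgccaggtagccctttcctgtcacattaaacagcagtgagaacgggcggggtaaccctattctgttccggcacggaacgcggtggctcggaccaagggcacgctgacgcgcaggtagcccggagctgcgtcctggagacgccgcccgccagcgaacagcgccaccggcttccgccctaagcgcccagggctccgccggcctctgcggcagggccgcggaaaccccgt

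Eif4a1 had 1299.7 and 1229.8 CPM in Yap KO and WT stimulated cells, against 467 and 388 CPM in Yap KO and WT unstimulated cells. Eif4a2 had 288 and 277 CPM against 351 and 434 CPM. Both stimulated libraries were above the unstimulated ones for Eif4a1 and below them for Eif4a2. The state log2 ratios were 1.57 ± 0.13 (SE, adjusted p = 3.83e-06) and -0.47 ± 0.14 (adjusted p = 0.0126). On the TPM scale Eif4a1 was 5.56 and 5.46 times Eif4a2 in Yap KO and WT stimulated cells, against 1.64 and 1.10 times in Yap KO and WT unstimulated cells. Of the 31-base words, 27.4% of those in Eif4a1 and 11.6% of those in Eif4a2 also occur in other loci, pseudogenes among them. Small nucleolar RNA genes lie within 11.6% of the exon bases of Eif4a2 and 6.62% of those of Eif4a1.

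The other helicase-related genes rose. Eif4a3, whose protein sits in the exon junction complex, had a state log2 ratio of 1.14. Eif4h and Eif4b, both helicase cofactors, had ratios of 1.03 and 0.59. Eif4h had 394 and 351 CPM in Yap KO and WT stimulated cells, against 196 and 170.0 CPM in Yap KO and WT unstimulated cells. All 3 passed the edgeR test, with adjusted p from 2.68e-05 to 0.00274.

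The cap-binding gene Eif4e had 381 and 367 CPM in Yap KO and WT stimulated cells, against 88.3 and 84.4 CPM in Yap KO and WT unstimulated cells. The libraries of a state differed little and the states lay far apart, with a state log2 ratio of 2.12 ± 0.13 (SE, adjusted p = 5.01e-07). Eif4e2, which encodes a cap-binding relative known mainly as a repressor, rose less, with a ratio of 0.64 ± 0.13. On the TPM scale Eif4e was 2.84 and 3.01 times Eif4e2 in Yap KO and WT stimulated cells, against 1.10 and 1.00 times in Yap KO and WT unstimulated cells. The third paralog, Eif4e3, was scarce, with 111 and 253 reads in Yap KO and WT stimulated cells, against 219 and 211 in Yap KO and WT unstimulated cells. WT stimulated cells had its highest level, 12.4 CPM, and Yap KO stimulated cells its lowest, 5.75 CPM. Its state ratio was -0.05 ± 0.28 and did not pass (adjusted p = 0.894), and 14.8% of its exon bases lie in Gm20696 on the same strand. Eif4e1b, an oocyte gene, had 0 reads in every library.

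The scaffold genes split. Eif4g1, the main scaffold of the cap complex, had 752 and 581 CPM in Yap KO and WT stimulated cells, against 368 and 332 CPM in Yap KO and WT unstimulated cells. Eif4g3, its closest paralog, had 134 and 108 CPM against 188 and 189 CPM, lower in both stimulated libraries. Eif4g2, which encodes a relative lacking the eIF4E-binding region, had 2612 and 2033 CPM against 1619 and 1772 CPM. The state log2 ratios were 0.92 ± 0.13 (SE, adjusted p = 0.000149) for Eif4g1, -0.65 ± 0.13 (0.00183) for Eif4g3 and 0.44 ± 0.15 (0.0221) for Eif4g2, which was not called when scaling by total counts alone (0.36). By TPM, Eif4g1 was 8.49 and 8.16 times Eif4g3 in Yap KO and WT stimulated cells, against 2.96 and 2.66 times in Yap KO and WT unstimulated cells.

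The widest gain of the family was that of Eif4ebp1, the 4E-binding protein that mTORC1 switches off by phosphorylation (GRCm38 chr8:27260329-27276674, plus strand, ENSMUSG00000031490). It had 3694 reads in Yap KO stimulated and 4411 in WT stimulated cells, against 235 in Yap KO unstimulated and 80 in WT unstimulated cells. As CPM these were 191 and 216 against 9.05 and 3.49. The ratio was 21.0-fold in Yap KO and 60.3-fold in WT, and the additive state log2 ratio was 5.09 ± 0.31 (SE, adjusted p = 5.68e-07). Eif4ebp2, the second repressor of this kind, went the other way. It had 35.6 and 37.2 CPM in Yap KO and WT stimulated cells, against 53.7 and 56.2 CPM in Yap KO and WT unstimulated cells, with a ratio of -0.59 ± 0.14 (adjusted p = 0.00386). On the TPM scale Eif4ebp1 was 14.1 and 15.3 times Eif4ebp2 in Yap KO and WT stimulated cells, but 0.443 and 0.163 times Eif4ebp2 in Yap KO and WT unstimulated cells. Eif4ebp1 stood at 1.37 and 1.61 times the TPM of its target gene Eif4e in stimulated cells, against 0.280 and 0.113 times in unstimulated cells. Eif4ebp3 had at most 2 reads in any library and no ratio was computed.

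Eif4enif1 encodes 4E-T, which binds eIF4E and holds it in processing bodies with stored mRNA. It had 380.3 and 475 CPM in Yap KO and WT stimulated cells, against 51.6 and 51.7 CPM in Yap KO and WT unstimulated cells. The ratio was 7.36-fold in Yap KO and 9.18-fold in WT, the second widest of the family, with a state log2 ratio of 3.04 ± 0.14 (SE, adjusted p = 1.17e-07).

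**Figure D3:**
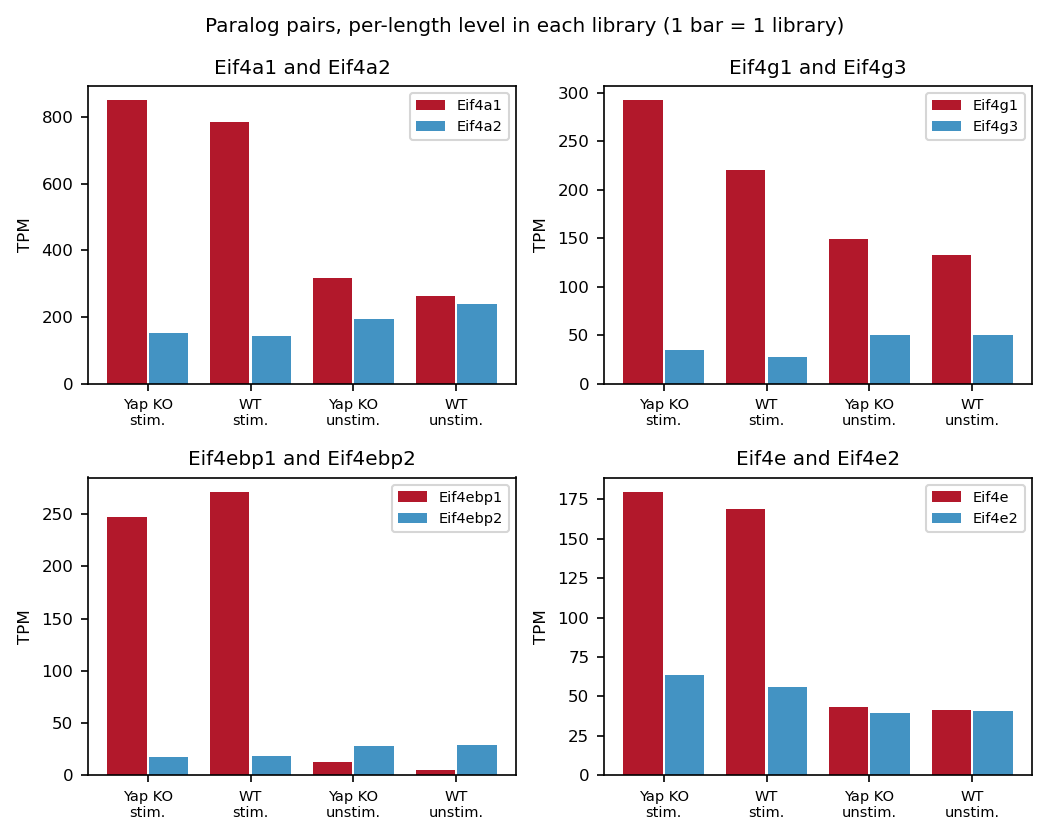
TPM (y axes, starting at 0) of 4 pairs of paralogous genes in the 4 libraries (x axes), where each bar is 1 library and carries no error. Eif4a1, Eif4g1, Eif4ebp1 and Eif4e stand well above their paralogs in both stimulated libraries, whereas Eif4ebp1 stands below Eif4ebp2 in both unstimulated ones, at 0.443 and 0.163 times its level.

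All 5 genes of the late and accessory factors rose. Eif5a encodes the hypusine-bearing factor that helps ribosomes through difficult sequences. It had 2149 and 2165 CPM in Yap KO and WT stimulated cells, against 582 and 478 CPM in Yap KO and WT unstimulated cells, and a state log2 ratio of 2.03 ± 0.14 (SE, adjusted p = 9.97e-07). By TPM it was the highest of the family in both stimulated libraries, whereas Eif1 was the highest in both unstimulated ones. Eif6, which keeps the large ribosomal subunit from joining too early, had 342 and 334 CPM against 114 and 100.4 CPM, and a ratio of 1.66 ± 0.13. Eif5b, Eif5 and Eif5a2 had ratios of 0.65, 0.44 and 1.07. Eif5a2, the scarce paralog of Eif5a, stood at less than 1% of the summed TPM of the pair in every library, since Eif5a held 99.1 to 99.7% of it.

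**Figure D4:**
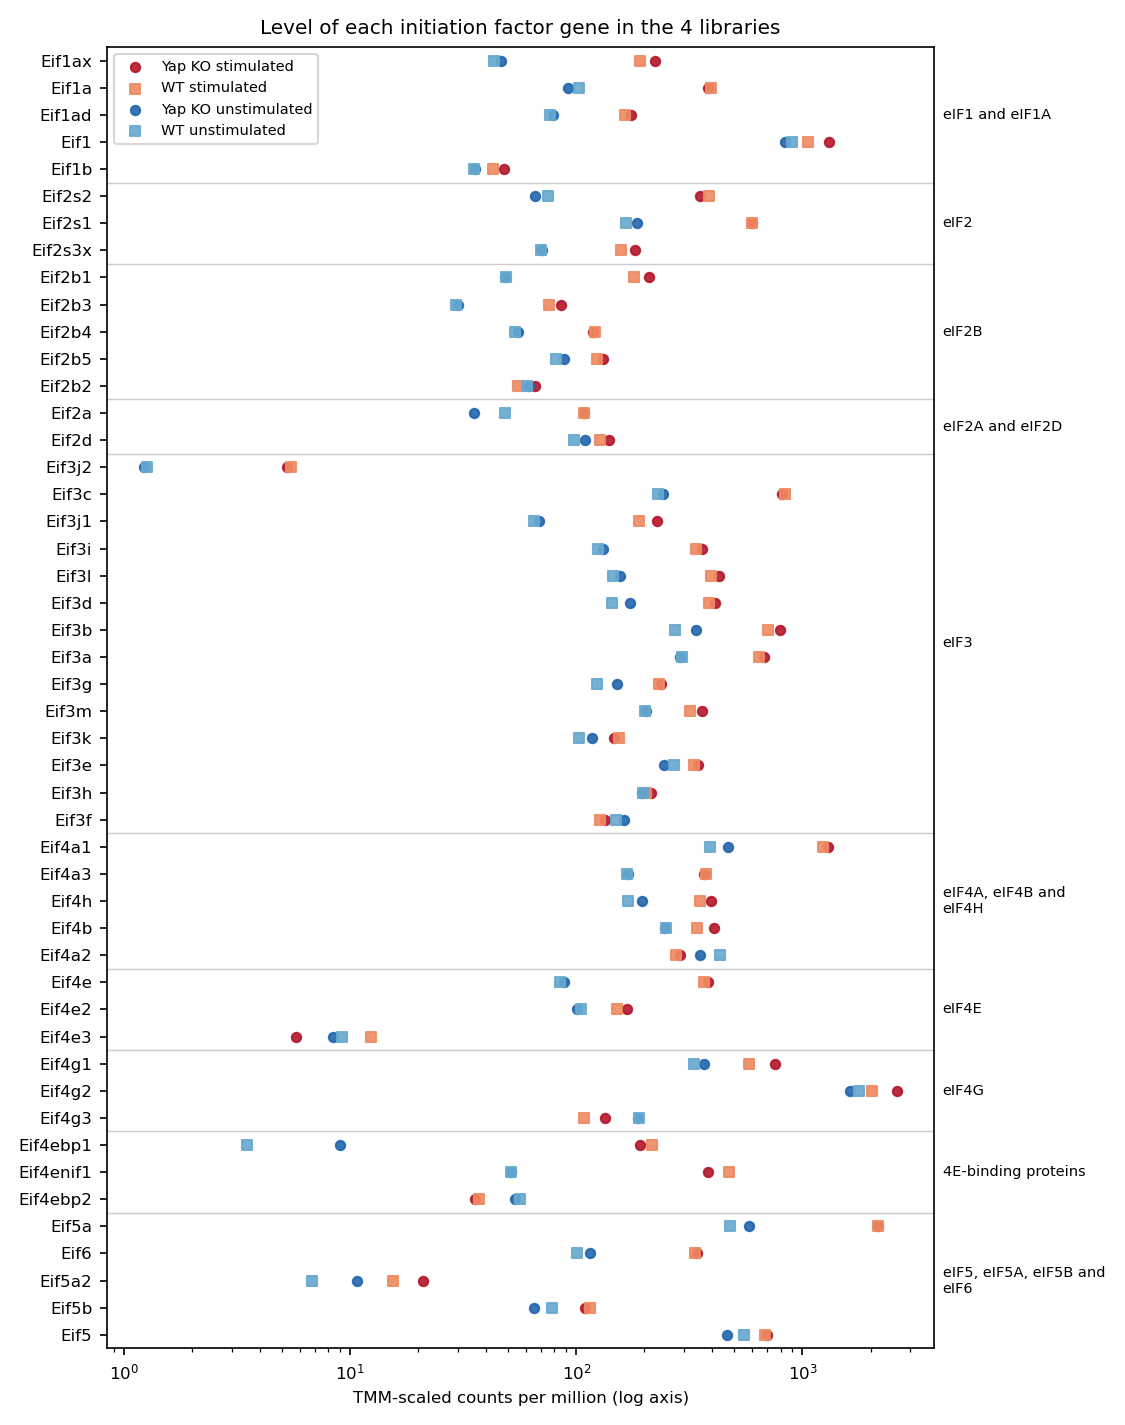
TMM-scaled CPM (x axis, log axis) of the 48 tested initiation factor genes (y axis, by functional group) in the 4 libraries, 1 point per library. Stimulated points lie right of unstimulated points for most genes, and left of them for Eif4a2, Eif4g3, Eif4ebp2 and Eif3f.

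Short sequences around the transcription start are shown for the members that carry a pyrimidine run there, because mRNAs that begin with such a run are known to be translated under mTORC1 control. A run here means 8 or more letters that are all C or T and that come within 5 bases of a RefSeq start. Such a run need not include the first base of the transcript. In the windows shown for Eif4e and Eif4enif1 the run ended before the start, so the transcript from that start does not begin with it. A run was found in 7 of the 39 members held in the RefSeq promoter table (17.9%). The share was 11.9% of 9241 tested protein-coding genes of that table and 11.0% of all its 27025 genes. The 30 bases below start 10 bases before the start site, read along the transcript (GRCm38.p6), with such runs in capitals, some of which begin before the letters shown. They come from Eif2b5 (chr16:20498807-20498836, plus), Eif2s3x (chrX:94212632-94212661, minus), Eif3f (chr7:108934405-108934434, plus), Eif3l (chr15:79075213-79075242, plus), Eif4e (chr3:138527258-138527287, plus) and Eif4enif1 (chr11:3202985-3203014, plus).
Eif2b5: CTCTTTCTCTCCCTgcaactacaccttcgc
Eif2s3x: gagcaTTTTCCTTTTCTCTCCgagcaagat
Eif3f: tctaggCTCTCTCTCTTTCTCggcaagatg
Eif3l: gagTTCTTCTTCCgCTCTCTCCCacgggct
Eif4e: CCCCCTTCaggagcggttgtgcgatcagat
Eif4enif1: CTCCTTCCgtgagtaccgtccctgcccttc

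The seventh was the Y-linked Eif2s3y, which had 0 reads and was not tested, unlike the genes behind the 11.9%. Of the 6 shown, Eif3f did not pass the state test and the other 5 rose. Among members of the promoter table, 5 of the 33 that rose (15.2%) had a run. Of the 5 other tested members there, 1 had one (20%). The E-box CACGTG, the same on both strands, occurred within 250 bases before to 50 after a start in 10 of the 39 members (25.6%), in 11.9% of the tested protein-coding genes and in 8.09% of all genes of the table. These 10 were Eif1b, Eif3a, Eif3f, Eif3k, Eif4a1, Eif4e, Eif4g1, Eif4h, Eif5a and Eif5a2. The E-box was in 9 of the 33 members that rose (27.3%) and in 1 of the 5 other tested members (20%). Both sets of matches are descriptions of these windows, and genes with several starts have more windows in which a match can fall. The motif TTGCATCA, a composite site of stress response factors, was searched on both strands and found in 0 of the 39, against 0.812% of the tested protein-coding genes.

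No initiation factor gene passed the test between genotypes. In the additive edgeR fit 0 of 48 members were higher and 0 lower in Yap KO, where 0.695% and 0.487% of all tested genes were, 1.18% in all. A single member of the 48, Eif5a2, had an unadjusted p under 0.05 (adjusted p = 0.372), where 1546 of all 15394 tested genes had one. DESeq2 also called 0 members. The median log2 ratio of members, Yap KO over WT, was 0.08 in stimulated and 0.03 in unstimulated cells, beside -0.00 and 0.03 over all tested genes. The ratio had the same sign in both states for 30 of the 48. By the size rule, 1.5-fold or more in the same direction in both states with counting intervals that leave out 0, 0 members qualified, where 3.59% of all tested genes did, 1.81% higher and 1.79% lower. At the lower fold threshold tried, Eif5a2 alone did. In 1 state taken alone, Eif4e3 was 1.5-fold or more apart in stimulated cells, where 21.1% of all tested genes were, and Eif4ebp1 and Eif5a2 in unstimulated cells, where 18.4% were.

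Eif5a2 had 20.9 CPM in Yap KO stimulated cells against 15.5 CPM in WT stimulated cells, and 10.7 CPM in Yap KO unstimulated cells against 6.81 CPM in WT unstimulated cells. It was thus higher in Yap KO in both states, with log2 ratios of 0.43 (95% counting interval 0.22 to 0.65) and 0.65 (0.37 to 0.95). Smaller differences whose counting intervals left out 0 in the same direction in both states occurred in 11 members, 9 higher and 2 lower in Yap KO, where 18.3% of all tested genes had them. The higher ones were Eif2b5, Eif2d, Eif3b, Eif3d, Eif3l, Eif4a1, Eif4g1, Eif4h and Eif5a2, and the lower ones Eif1a and Eif2s2. Eif4g1 had log2 ratios of 0.37 in stimulated and 0.15 in unstimulated cells. Eif3b had 0.17 and 0.30. Eif2s2 had -0.12 and -0.20. Eif1a had -0.046 and -0.16. Its interval in stimulated cells ended at -0.0006, so a small change of scaling would take it past 0. Such intervals hold counting error only and do not show that further cultures or animals would differ.

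**Figure D5:**
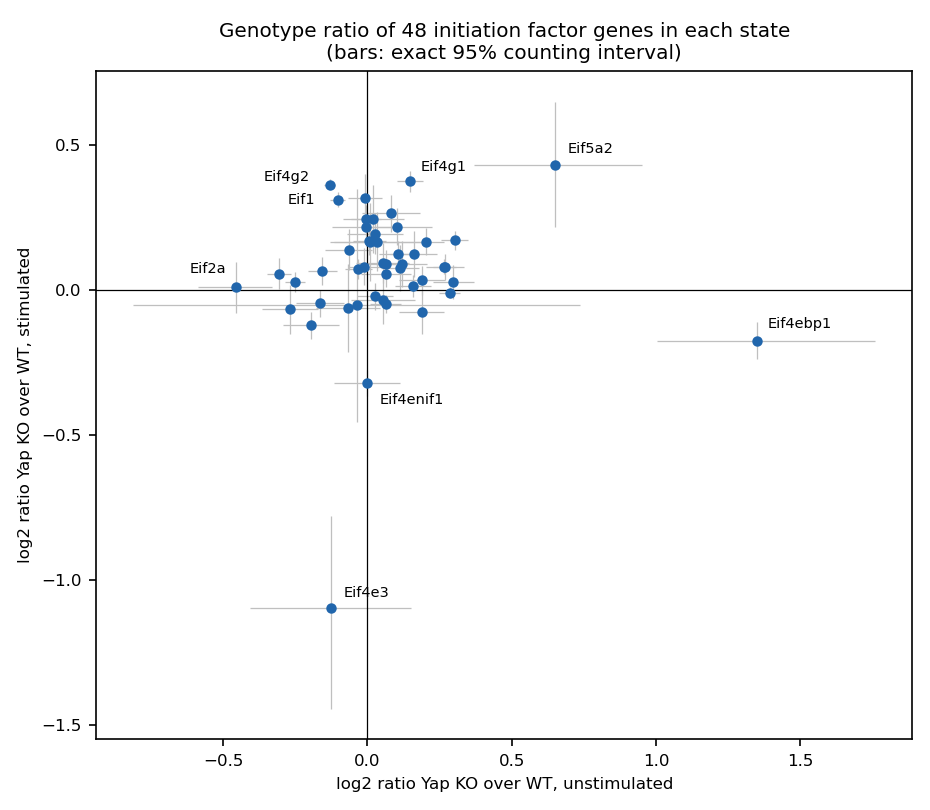
Log2 ratio, Yap KO over WT, of the 48 tested initiation factor genes in stimulated cells (y axis) against unstimulated cells (x axis), with exact 95% counting intervals. Most points lie near the crossing of the axes, while Eif4ebp1 (1.35 unstimulated), Eif5a2 (0.43 stimulated and 0.65 unstimulated) and Eif4e3 (-1.10 stimulated) stand away from it.

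The state ratios of both genotypes were also set against each other. The difference, Yap KO minus WT, had a counting interval that left out 0 in 31 members, 19 higher and 12 lower, where 40.1% of all tested genes had one. The width of this interval depends on read counts alone, so in genes with many reads a small difference can leave out 0. The difference reached 1.5-fold with an interval that left out 0 in 2 members, Eif4ebp1 and Eif4e3. Of all tested genes, 13.2% met both conditions. For Eif4ebp1 the log2 state ratio was 4.39 in Yap KO and 5.91 in WT, a difference of -1.53 (95% interval -1.90 to -1.15). Its genotype ratio, Yap KO over WT, was -0.17 in stimulated cells and 1.35 in unstimulated cells, so the stimulated libraries lay close together and the unstimulated ones apart. For Eif4e3 the state ratio was -0.55 in Yap KO and 0.42 in WT, a difference of -0.97 (-1.39 to -0.55). The genotype ratio of Eif4e3 was -1.10 in stimulated and -0.13 in unstimulated cells. Among the other members, Eif4g2 differed by 0.49 (0.46 to 0.52), Eif2a by 0.47 (0.31 to 0.62) and Eif1 by 0.41 (0.38 to 0.45). The interaction has no residual degrees of freedom here, so these differences carry no test.

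Genes that act around initiation were described from 9 lists, with 66 of 68 matched genes tested, and 37 of them rose and 13 fell, set against the 32.1% and 32.5% of all tested genes. Of the 4 kinases that phosphorylate the alpha subunit of eIF2, Eif2ak1 (HRI) and Eif2ak4 (GCN2) rose, with state log2 ratios of 0.68 and 0.66. Eif2ak3 (PERK) had a ratio of -0.13 and Eif2ak2 (PKR) one of 0.56, neither past the test. Eif2ak2 had 25.9 CPM in Yap KO stimulated cells against 72.8 CPM in WT stimulated cells, and 26.4 CPM in Yap KO unstimulated cells against 33.6 CPM in WT unstimulated cells. WT stimulated cells stood above the other 3 libraries, and the genotype ratio did not pass the edgeR test (adjusted p = 0.139).

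Among 8 genes of the eIF2 phosphatase and the stress response, 4 rose (50%) and 2 fell (25%), where 32.1% and 32.5% of all tested genes did. Trib3, a pseudokinase of the stress response, had 98.6 and 137 CPM in Yap KO and WT stimulated cells, against 3.93 and 4.54 CPM in Yap KO and WT unstimulated cells, with a state log2 ratio of 4.78 ± 0.17 (SE, adjusted p = 2.4e-08). Atf5, a stress transcription factor, had a ratio of 2.87. Ppp1r15a, the stress-induced subunit of the eIF2 phosphatase, fell, with 110.0 and 144 CPM in stimulated cells against 514 and 725 CPM in unstimulated cells and a ratio of -2.28 ± 0.13. Of 12 cofactors of the small subunit and cap complex, 7 rose and 4 fell. Pdcd4, an inhibitor that holds eIF4A, had 25.6 and 32.8 CPM in stimulated cells against 286 and 354 CPM in unstimulated cells, a ratio of -3.46 ± 0.14. Denr, a reinitiation factor, and Abce1, which recycles ribosomes, had ratios of 1.57 and 1.21.

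The 4 genes of eIF5A hypusination and eIF6 release all rose, with Dohh and Dhps, the hypusine enzymes, at 1.42 and 0.67 and the eIF6 release factor Sbds at 1.17. Of 12 mTORC1 and S6 kinase genes, 5 rose (41.7%) and 4 fell (33.3%), where 32.1% and 32.5% of all tested genes did. Tbc1d7, a subunit of the TSC complex, had a ratio of 3.20, while the TSC scaffold Tsc1 had -1.11 and Rptor, which recruits mTORC1 substrates, -1.07. Of 6 genes of poly(A)-binding proteins and partners, Pabpc4 rose (2.06) and Paip2, an inhibitor of poly(A)-binding protein, fell (-0.31). Paip1, which links poly(A)-binding protein to eIF4A, was the single gene called between genotypes among the 66 tested of all lists. Of all tested genes, 1.18% were called. Paip1 was picked out after its values were seen. It had 29.7 CPM in Yap KO stimulated cells against 8.08 CPM in WT stimulated cells, and 23.9 CPM in Yap KO unstimulated cells against 7.07 CPM in WT unstimulated cells. The log2 ratio was 1.87 (95% counting interval 1.63 to 2.14) in stimulated and 1.74 (1.51 to 2.02) in unstimulated cells, and 1.82 in the additive edgeR fit (adjusted p = 0.00187).

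Downstream of initiation, 4 of 8 tested elongation factor genes rose (50%) and 2 fell (25%), where 32.1% and 32.5% of all tested genes did. Eef1e1 and Eef1d had ratios of 2.54 and 1.69. Eef1a1, which delivers tRNA to the elongating ribosome, fell, with 2663 and 2684 CPM in Yap KO and WT stimulated cells against 4853 and 4703 CPM in Yap KO and WT unstimulated cells, a ratio of -0.84 ± 0.12 (SE). All 4 tested termination and rescue factor genes rose, led by Etf1 with 2.40, Gspt1 with 1.69 and Pelo with 0.82. Of 8 mitochondrial factors, 6 rose and 0 fell, led by Tsfm (2.01), Gfm1 (1.68) and Mtrf1 (1.45).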

How the data were processed

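RNA-seq of 4 mouse libraries was used, 1 per genotype and state. The authors deposited raw read counts per Ensembl gene for each library, whole numbers without normalization, ending in the summary entries that htseq-count writes. Per the submitters' processing notes, the genome was mm9. No source used here gives the aligner, the annotation release or the strand setting. Identifiers include ones later than mm9, so gene coordinates are from GENCODE M21 (GRCm38), in which 50462 of 50686 identifiers were found.

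Summary entries did not count toward library sizes. Reads in genes made up 35.6 to 39.7% of all entries, reads in no gene 48.3 to 52.5%, unaligned reads 7.20 to 7.77%, reads aligned in several places 3.48 to 4.31% and ambiguous reads 0.635 to 0.755%. Genes were filtered with filterByExpr by state (minimum count 10), which left 15394, and scaled by TMM (factors 0.968 to 1.04). The test was the edgeR 4.0.16 quasi-likelihood F test in R 4.3.3 with genotype and state as additive terms (1 residual and 8.45 prior degrees of freedom), with Benjamini-Hochberg adjustment at 0.05. Each SE was derived from that test, as the size of the coefficient divided by the square root of its F value. It thus carries the variance shared over genes and no replicate error. DESeq2 1.42.0, other scalings, no filter, state alone as term, leaving out genes with exons opposite another gene, and other prior counts and fold thresholds were alternatives; leaving out each library was added after the data were seen. Log2 ratios of 2 libraries used a prior count of 2, with exact conditional binomial (Clopper-Pearson) 95% intervals, and differences of 2 ratios a normal interval on the log scale. Intervals and the floor of 3 reads for a count of 0 cover counting error only. TPM used merged exon lengths from GENCODE M21. Shared sequence was measured in words of 31 bases. By it 14 members share more than 10% of their words with other genes, and 11 members have exons opposite another gene.

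All members are named; of the other lists, the 3 called genes with the largest state ratio and all Eif2ak genes are named, with exceptions stated. Members, lists and tests were chosen with earlier results of these data known. Promoter sequences are from RefSeq (GRCm38.p6), in which 39 of the 51 members were matched. Each library's group is that of its title and genotype label.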

Additional observations from a re-analysis of the deposited data

Results flagged for a closer look

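Several members went in opposite directions in the 2 states or genotypes, with both counting intervals leaving out 0. With 1 library a group these differences were not tested. The share of all tested genes that did the same was not computed, so the reversals cannot be called a trait of the members. In genes with many reads a small difference can leave out 0. Eif4ebp1 had the widest gap, with a log2 ratio, Yap KO over WT, of -0.17 in stimulated and 1.35 in unstimulated cells. Eif4g2 had 0.36 in stimulated and -0.13 in unstimulated cells, and Eif1 had 0.31 and -0.10. Eif4a2 had 0.055 in stimulated and -0.31 in unstimulated cells, and Eif3e had 0.064 and -0.16. Eif3k had -0.078 in stimulated and 0.19 in unstimulated cells, and Eif3c had -0.047 and 0.064. Some of these intervals ended close to 0, so a small change of scaling would take them past it. The ends were 0.0018 for Eif4a2 and -0.0043 for Eif3k in stimulated cells, and 0.011 for Eif3c in unstimulated cells. For Eif4e3 the stimulated over unstimulated log2 ratio was -0.55 in Yap KO and 0.42 in WT.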

How the results depend on the processing

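The number of initiation factor genes called higher in stimulated cells was 37 to 41 of 48 or 49 tested under other scalings, no filter, DESeq2 and state alone as term, and 31 of 37 without genes that have exons opposite another gene; 2 to 4 were called lower. Leaving out each library in turn, with state alone as term and the lone library assumed to vary like the others, gave 34 to 36 higher and 2 to 3 lower. Scaling by total counts alone put the median state log2 ratio of members at 1.02 in Yap KO and 1.05 in WT, and that of all genes at -0.13 and -0.11. Under that scaling Eif1b (0.28), Eif2d (0.28), Eif3e (0.31) and Eif4g2 (0.36) were no longer called and Eif3f (-0.35) was called lower. Eif1b was also not called without the filter, by DESeq2 or with state alone as term. Without genes opposite another gene, 21 of 38 tested genes of the 9 other lists were higher and 6 lower, since fewer genes were tested. At the lower fold threshold 1 member was higher in Yap KO in both states, Eif5a2. No called member changed direction under the settings with a ratio for each gene, which leaving out a library did not give, and the genotype test called 0 members in each setting in which it was run. No paired analysis was possible because the groups share only the replicate number 1; genotype is already a term of the additive fit. Depth limits Eif3j2, Eif4e3, Eif5a2 and, in WT unstimulated cells, Eif4ebp1 (80 reads), and Eif4ebp3, Eif2s3y and Eif4e1b did not pass the filter.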
